A study of Mus musculus with 2 samples.

Results

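Accessible regions inside introns, but close to the starts of genes, were described in G1E-ER4 cells. A region belonged to this class where its strongest summit lay in the body of a protein-coding gene, in no annotated exon, and more than 1 kb but at most 10 kb from the nearest start of a protein-coding transcript. Of 20080 regions in the conservative peak list, 2163 met the rule (10.8%, 95% Wilson interval 10.4 to 11.2). By the same rule the list of replicate 1 alone held 1190 and that of replicate 2 alone 1387. Signal entered the rule only where a region had several summits, to pick the summit whose position was used. The study applied ATAC-seq, in which a transposase cuts open DNA, to G1E-ER4 cells after 24 hours in 10 nM 17β-estradiol. G1E-ER4 is a mouse erythroid line derived from Gata1-null cells and carries GATA1 fused to the ligand-binding part of the estrogen receptor, so that estradiol activates the fusion protein. The labels give C57BL/6J as the strain, male as the sex and a postnatal stage of 0 days as the source of the line. Both libraries, replicates 1 and 2, received the same treatment and were made from 50000 cells each. No untreated cells were analysed, so no value here is a change caused by estradiol, and all values come from a single cell line.

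Introns near gene starts often hold enhancers, which are short stretches of DNA bound by transcription factors that raise the activity of a nearby promoter, and they can also hold second promoters of the same gene. In red cell precursors the main factor is GATA1, which binds the GATA pattern. It works with its cofactor FOG1 and, at many enhancers, with a complex of TAL1 and its partners that sits on part of an E-box a short fixed distance from the GATA site. In human ALAS2, the gene for the red cell form of the first enzyme of heme synthesis, a GATA1-bound enhancer of this kind lies in the first intron.

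The sequences below carry that arrangement at regions of red cell genes, of platelet genes that share GATA1 control, and at Chd4, Shld1, Pnpla6 and Ldlrad1, which are those of the 10 strongest regions with the composite that hold it in the printed window. Each is a summit with the 50 bp on either side, on mm10, read from the RefSeq copy of GRCm38, and capitals mark the composite, a CTG followed after a spacer by a GATA pattern, in either orientation. The region of Tubb3, a neuron gene, also held the composite within that span (signal 10.5) and is not printed.

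Epb41 (chr4:132040418-132040518, plus strand): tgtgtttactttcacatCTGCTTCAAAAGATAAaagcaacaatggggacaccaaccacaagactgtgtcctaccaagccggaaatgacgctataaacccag
Alas2 (chrX:150549774-150549874, plus strand): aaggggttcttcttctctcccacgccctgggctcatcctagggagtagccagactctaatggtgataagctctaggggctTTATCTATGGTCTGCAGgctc
Ank1 (chr8:23054160-23054260, plus strand): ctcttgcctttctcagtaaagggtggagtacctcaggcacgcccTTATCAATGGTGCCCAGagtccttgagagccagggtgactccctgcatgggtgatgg
Slc4a1 (chr11:102363705-102363805, plus strand): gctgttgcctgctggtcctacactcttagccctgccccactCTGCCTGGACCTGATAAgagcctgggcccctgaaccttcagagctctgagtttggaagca
Dmtn (chr14:70624008-70624108, plus strand): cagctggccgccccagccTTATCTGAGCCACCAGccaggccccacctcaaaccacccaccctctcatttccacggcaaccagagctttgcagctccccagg
Foxo3 (chr10:42265159-42265259, plus strand): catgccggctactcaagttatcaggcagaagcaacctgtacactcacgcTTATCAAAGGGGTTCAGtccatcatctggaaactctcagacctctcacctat
Cbfa2t3 (chr8:122685576-122685676, plus strand): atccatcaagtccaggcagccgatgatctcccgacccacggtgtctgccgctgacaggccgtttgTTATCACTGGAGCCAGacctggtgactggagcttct
Itgb3 (chr11:104611706-104611806, plus strand): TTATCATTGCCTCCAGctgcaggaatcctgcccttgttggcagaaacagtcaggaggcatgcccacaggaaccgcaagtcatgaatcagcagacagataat
Tubb1 (chr2:174453812-174453912, plus strand): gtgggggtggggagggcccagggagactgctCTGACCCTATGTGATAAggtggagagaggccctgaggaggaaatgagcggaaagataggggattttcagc
Chd4 (chr6:125104387-125104487, plus strand): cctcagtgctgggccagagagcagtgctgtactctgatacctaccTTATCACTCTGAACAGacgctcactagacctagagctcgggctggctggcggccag
Shld1 (chr2:132695858-132695958, plus strand): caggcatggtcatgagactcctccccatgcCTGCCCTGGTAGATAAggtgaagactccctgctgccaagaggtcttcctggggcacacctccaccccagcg
Pnpla6 (chr8:3522476-3522576, plus strand): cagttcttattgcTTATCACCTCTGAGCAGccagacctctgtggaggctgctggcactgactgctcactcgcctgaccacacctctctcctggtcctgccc
Ldlrad1 (chr4:107217654-107217754, plus strand): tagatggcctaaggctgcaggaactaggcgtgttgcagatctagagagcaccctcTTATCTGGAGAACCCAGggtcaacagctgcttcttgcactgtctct

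A further set held GATA sites without the composite, and is shown because it comes from genes of the membrane, heme synthesis and cell cycle control. Here capitals mark the GATA pattern, AGATAA or TGATAA, in either orientation.

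Tmod1 (chr4:46040836-46040936, plus strand): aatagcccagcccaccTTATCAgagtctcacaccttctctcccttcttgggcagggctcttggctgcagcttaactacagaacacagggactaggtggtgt
Rhd (chr4:134869516-134869616, plus strand): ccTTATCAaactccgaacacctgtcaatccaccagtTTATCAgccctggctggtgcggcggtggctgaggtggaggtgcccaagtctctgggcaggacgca
Slc25a37 (chr14:69276427-69276527, plus strand): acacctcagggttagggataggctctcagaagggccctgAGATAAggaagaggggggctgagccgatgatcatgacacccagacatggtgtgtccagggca
E2f2 (chr4:136178095-136178195, plus strand): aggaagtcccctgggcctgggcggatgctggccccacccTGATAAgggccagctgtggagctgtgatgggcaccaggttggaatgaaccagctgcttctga
Uros (chr7:133698065-133698165, plus strand): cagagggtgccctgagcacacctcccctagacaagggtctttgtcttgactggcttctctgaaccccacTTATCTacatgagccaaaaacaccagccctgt
Alad (chr4:62516750-62516850, plus strand): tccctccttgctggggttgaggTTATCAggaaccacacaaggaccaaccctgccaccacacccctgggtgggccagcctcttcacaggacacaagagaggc

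Most regions of the class belonged to the gene whose start was nearest. The nearest start was that of a host gene in 90.3% of regions (89.0 to 91.5), and 4.90% lay in more than 1 gene body. Introns of principal transcripts held 1010 regions in a first intron and 980 in later introns, while 173 lay outside the introns of such transcripts, in the span of another transcript of the gene. A region in the first intron of any gene counted as first. Some in later introns of their own host, such as Fanca and Zc3h18, counted so through the long gene model Gm20388. By the principal transcript of the host gene with the nearest own start, 993 lay in intron 1. The share in the first intron was 46.7%, although the first intron made up 37.7% of the sequence that the rule admits. At introns more than 10 kb from a start, the first-intron share was lower by 24.7 percentage points (95% Newcombe interval of the difference 22.1 to 27.2). In the replicates' own lists the difference was 25.6 points in replicate 1 and 26.0 points in replicate 2. The first-intron share of all sequence beyond 10 kb was not measured.

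The class was dense for the sequence it covers. Intron sequence at 1 to 10 kb made up 7.76% of the genome and 10.8% of the regions, a ratio of 1.39. Regions numbered 10.2 per Mb of that sequence (exact Poisson interval 9.80 to 10.7), against 4.50 per Mb in introns beyond 10 kb (4.34 to 4.66), 8.16 per Mb in intergenic sequence at 1 to 10 kb (7.70 to 8.63) and 2.10 per Mb in intergenic sequence farther away (2.02 to 2.17). The intervals of the near introns overlap none of the others. Density was highest next to the promoter, with 15.6 regions per Mb at 1 to 2 kb and 11.1 at 2 to 3 kb. From 3 to 10 kb it stayed between 7.74 and 10.1 per Mb, with no steady fall. Intergenic sequence at 1 to 2 kb held 10.4 per Mb (8.93 to 12.03), so the peak next to the start was higher in introns (14.2 to 17.0). Within the class, first introns held 12.7 regions per Mb and later introns 8.85.

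**Figure D1:**
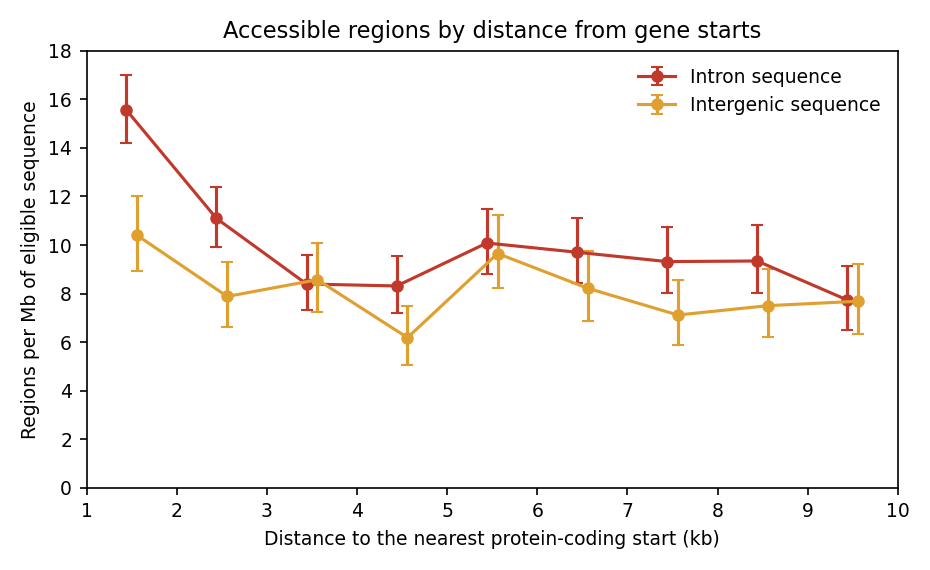
Regions per Mb of eligible sequence (vertical axis) in 1 kb bins of distance to the nearest protein-coding start (horizontal axis), for introns and for intergenic sequence, with exact 95% Poisson intervals. The intron points begin at 15.6 per Mb at 1 to 2 kb and lie between 7.74 and 10.1 beyond 3 kb, where the intervals of both kinds of sequence overlap in every bin.

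The limits of the rule cut through a continuous series of distances. Just beyond 1 kb, and so in the class, were regions in Vps37b (1002 bp from the start, signal 13.8), Utrn (1004 bp, 8.10) and Pnpla7 (1005 bp, 3.51). Just too near to enter it were those in Gtf2ird1 and Pon2 (both 1000 bp, signals 7.93 and 13.3) and Asap1 (999 bp, 6.30). Just inside 10 kb were regions in Fryl (10000 bp, 9.02), Mrps28 (9983 bp, 12.4) and Cdkl4 (9977 bp, 11.1), and just outside it those in Impad1 (10011 bp, 12.6), Gm3448 (10019 bp, 6.66) and Acsl5 (10021 bp, 13.4). The signal is an enrichment value that the authors gave each peak, on a scale that no source used here explains, and it serves to rank peaks within a list.

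Many members sat beside other open DNA. Another summit lay within 5 kb of 41.5% of them, and the median distance to the next region was 5989 bp, against 14599 bp for introns beyond 10 kb and 5894 bp for intergenic regions at 1 to 10 kb. A start of any annotated transcript, noncoding ones included, lay within 1 kb of 269 members (12.4%), and 134 members reached with an edge into the 1 kb around a coding start. Among the 269 were members named below in Uros (35 bp), Slc4a1 (51 bp), Itga2b (73 bp) and Def6 (107 bp). The summit lay in a repeat masked by the assembly in 8.09% of members, although 29.0% of the eligible sequence is masked. On chromosome X there were 34 members, among them those of Alas2 and Gata1.

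Members called by both libraries were outnumbered by those called in 1 or in neither. Called in both replicates' own lists were 42.9% of members (40.8 to 44.95), against 60.7% of all regions, 41.4% of regions in introns beyond 10 kb, 43.0% of intergenic regions at 1 to 10 kb and 80.7% of promoter regions. The difference from introns beyond 10 kb was 1.44 points (−1.26 to 4.16) and that from promoter regions was −37.9 points (−40.1 to −35.6). The first difference excluded 0 among regions of the list of replicate 2 alone (4.65 points, 1.41 to 7.85) and with 1 start per gene (5.18 points, 2.48 to 7.87), but not among those of replicate 1 alone (1.01 points, −2.10 to 4.06). In a single list every region is called in that replicate by construction, so the share counts only regions also found in the other list. That share was 78.3% of members in the list of replicate 1 and 67.5% in that of replicate 2. The single-list differences are therefore another measure than those of the conservative list. From promoter regions they were −16.1 points in the list of replicate 1 and −22.6 points in that of replicate 2. Of the remaining members, 32.1% were called in neither list, 15.9% only in that of replicate 2 and 9.15% only in that of replicate 1. Replicate 2 also had the longer list, with 15564 regions against 14012 in replicate 1, and read depth is unknown in both. Across the 2035 members with a value in the ranked lists of both replicates, the −log10 p correlated with a Spearman's rho of 0.828, and the same measure gave 0.945 over promoter regions. That correlation runs across regions of the same libraries and is a description.

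**Figure D2:**
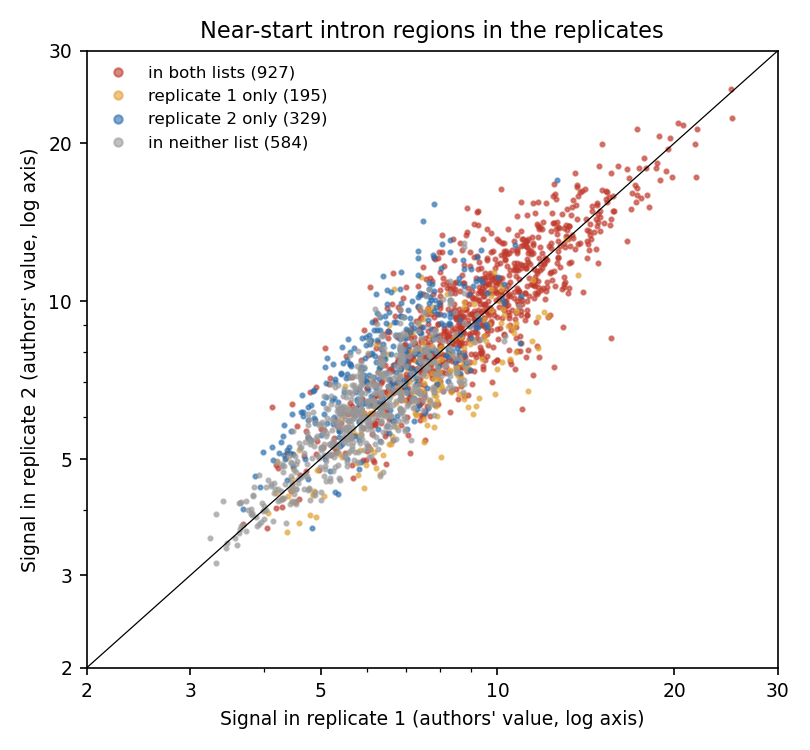
Signal of each member in replicate 1 (horizontal axis) and in replicate 2 (vertical axis), both on log axes, coloured by the replicate lists that called it, with the line of equal values. Points lie along the line, and the members called in neither list crowd at the low end, with a median signal of 5.88 in replicate 1 and 6.195 in replicate 2, against 9.04 and 9.41 for the 927 members called in both.

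The regions were weaker and narrower than promoters. Median signal in the conservative list was 8.61 for members, against 9.56 for introns beyond 10 kb, 9.03 for intergenic regions at 1 to 10 kb and 12.9 for promoters. In the replicates' own lists the medians of members minus those of introns beyond 10 kb were −0.765 in replicate 1 and −0.841 in replicate 2 (mean difference −0.803 ± 0.0535, SD, n = 2). The −log10 p gave another order, with medians for members of 16.8 in replicate 1 and 19.4 in replicate 2, against 16.4 and 18.9 for introns beyond 10 kb. The same split appeared with distance: median signal was 7.51 for members at 1 to 2 kb and 9.50 at 8 to 10 kb, while the median −log10 p was 16.6 and 16.4 in replicate 1 and 19.2 and 18.9 in replicate 2. The share called in both replicates was 42.5% at 1 to 2 kb and 43.4% at 8 to 10 kb. First-intron members had a lower median signal than later-intron members (7.86 against 9.13) and were called in both replicates more often (45.6% against 39.2%, difference 6.46 points, 2.12 to 10.8). Calling by both replicates followed signal over all members, with 79.9% among the 541 members of highest signal and 17.6% among the 540 of lowest signal, while first and later introns differed in the opposite sense. Median width was 410 bp, against 428, 402 and 600 bp for introns beyond 10 kb, near intergenic regions and promoters.

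Base composition set members apart from promoters far more than from other introns. The median GC content of the summit with 100 bp on either side was 52.2% in members, 51.2% in introns beyond 10 kb, 52.7% in near intergenic regions and 63.7% in promoters. The median ratio of observed to expected CpG was 0.218 in members and 0.801 in promoters. A CpG ratio over 0.6, as CpG islands have, occurred in 134 members (6.195%), against 3.11% of introns beyond 10 kb, 15.3% of near intergenic regions and 78.3% of promoters. These CpG-rich members lay nearer to the start, at a median of 2338 bp, and 40.3% of them held a GC box, against 7.29% of the other members. They held a GATA pattern less often (14.2% against 42.5%, difference −28.3 points, −33.7 to −21.1) and were called in both replicates more often (60.4% against 41.7%, difference 18.8 points, 10.02 to 26.9). Members within 1 kb of any transcript start leaned the same way, with a GC box in 19.0% against 7.97% and a GATA pattern in 28.3% against 42.5% of members with no such start (differences of 10.99 points, 6.56 to 16.2, and −14.2 points, −19.8 to −8.18).

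GATA patterns were the most frequent of the transcription factor patterns searched. AGATAA or TGATAA, on either strand of the same windows, was present in 881 members (40.7%, 38.7 to 42.8), against 23.4% of all regions, and in 16.3% of flanking windows 1 kb away that lie outside peaks. The composite with CTG at a spacer of 7 or 8 bases, CTGNNNNNNNAGATAA and its variants, was present in 196 members (9.06%, 7.92 to 10.3), against 5.05% of all regions and 0.554% of flanks. Members exceeded near intergenic regions by 9.73 points for GATA (6.37 to 13.0) and by 2.80 points for the composite (0.908 to 4.57), and promoters by 33.9 points (31.8 to 36.1) and 7.93 points (6.77 to 9.23). With 1 start per gene the differences from near intergenic regions were 2.58 points for GATA (−0.854 to 5.96) and 0.9502 points for the composite (−0.959 to 2.75), and at 1 to 5 kb that for the composite was 1.43 points (−1.27 to 3.83), so that these intervals include 0. Against introns beyond 10 kb they were lower by 3.38 points for GATA (interval of the difference −6.08 to −0.666), and for the composite the difference was −1.40 points (−3.00 to 0.240), with the opposite sign when 50 bp on either side of the summit were searched (0.324 points, −0.955 to 1.66). In the replicates' own lists GATA was present in 43.7% of members in replicate 1 and 41.2% in replicate 2, against 49.5% and 46.2% of introns beyond 10 kb. The lower GATA share against those introns was past its interval in the main setting, but not with starts of all transcripts (−1.23 points, −4.12 to 1.66), beyond 2 kb (−1.28 points, −4.20 to 1.67), with 50 bp on either side of the summit (−1.35 points, −3.75 to 1.08), with AGATAA alone (−1.89 points, −4.33 to 0.589) or above the median signal (−3.18 points, −8.07 to 1.79).

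GATA patterns crowded at the summits. Matches reached 3.01 per kb in the 25 bp just right of the summit and were 1.02 per kb at 475 to 500 bp to its left. In 66.1% of members with the pattern (62.9 to 69.1) a match lay within 50 bp of the summit, and the composite lay that close in 75.5% of the members that held it, at a median of 29.5 bp. Orientation relative to the host gene was even, with 521 of 1056 GATA matches on the sense strand (49.3%, 46.3 to 52.4) and 113 of 203 composite matches (55.7%, 48.8 to 62.3). The spacer had 8 bases in 129 composite matches and 7 in 74. Of the members, 717 held 1 GATA match, 153 held 2 and 11 held 3 or more.

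**Figure D3:**
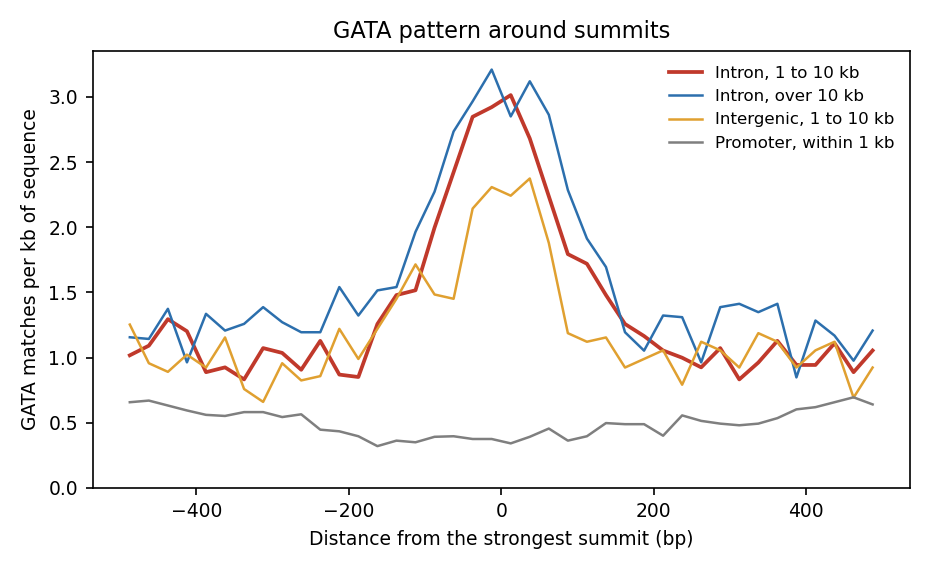
GATA matches per kb of sequence (vertical axis) in 25 bp bins by distance from the strongest summit (horizontal axis), in members, introns beyond 10 kb, intergenic regions at 1 to 10 kb and promoters. The members' line stands at 3.01 per kb at the summit and near 1.02 at the left edge, while the promoters' line is 0.341 at the summit and 0.657 at the left edge.

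Members with the composite were called in both thresholded lists more often. They were called in both replicates' lists in 57.7% of cases, against 41.4% of members without it (difference 16.3 points, 8.94 to 23.3). For any GATA pattern the shares were 46.2% and 40.6% (difference 5.64 points, 1.39 to 9.87). Members with GATA but without the composite were called in both in 42.9% of cases, which differed from members without GATA by 2.36 points with an interval that includes 0 (−2.19 to 6.94). With 0, 1, 2 and 3 or more GATA matches the shares were 40.6%, 45.5%, 49.0% and 54.5%, the last over 11 members (interval 28.0 to 78.7). The median signal of members with and without the composite was 9.06 and 8.57, and the median −log10 p was 19.1 and 16.5 in replicate 1 and 22.2 and 18.9 in replicate 2. The share with GATA was lowest next to the start, with 33.4% at 1 to 2 kb against 42.8% beyond 2 kb (difference −9.43 points, −14.1 to −4.51).

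Other patterns divided the class from promoters and from intergenic regions. The GC box GGGCGGG, bound by SP and KLF factors, was present in 9.34% of members, 5.84% of introns beyond 10 kb (difference 3.50 points, 2.04 to 5.01), 11.5% of near intergenic regions and 43.9% of promoters. That excess over other introns was 0.713 points (−0.759 to 2.12) when starts of all transcripts set the distance. The CTCF core AGNNGGCGC, a part of the pattern of the insulator protein CTCF, was present in 4.53% of members and 8.57% of near intergenic regions (difference −4.04 points, −5.93 to −2.31). RUNX (TGTGGT) was present in 23.5%, ETS (CCGGAAG or AGGAAG) in 35.0% and AP-1 (TGANTCA) in 11.4% of members, each within 1 point of introns beyond 10 kb. The flanks held them in 15.1%, 23.4% and 6.07% of windows. NF-E2, whose pattern contains that of AP-1, was present in 68 members (3.14%, against 0.227% of flanks). The estrogen response element was present in 1 member and the NRF1 pattern in 1, and YY1 in 4.

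**Figure D4:**
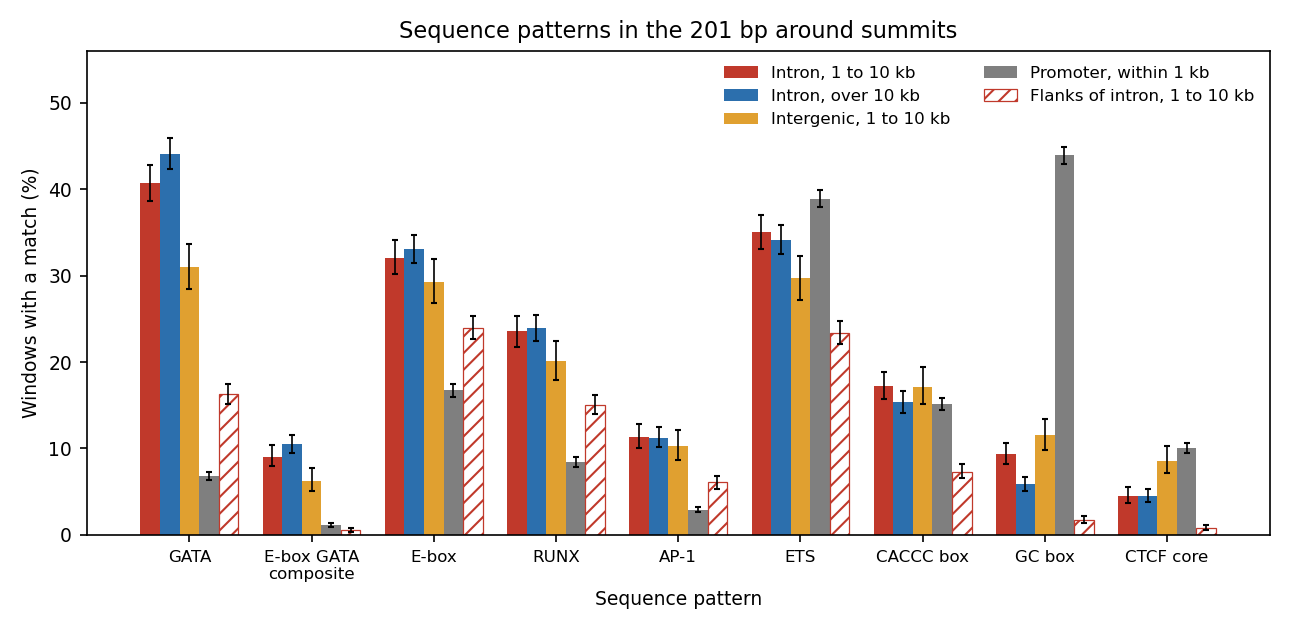
Share of windows (100 bp on either side of the summit) with each sequence pattern (vertical axis, percent) in members, introns beyond 10 kb, near intergenic regions, promoters and the members' flanks, with 95% Wilson intervals. The members' bars follow those of introns beyond 10 kb closely, at 40.7% and 44.1% for GATA, and differ from promoters most for GATA and for the GC box, at 9.34% and 43.9%.

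Members of high and low signal differed in position and in GC box share, while the interval of their GATA difference included 0. Among the 541 members of highest signal, 38.4% held a GATA pattern, against 40.4% of the 540 of lowest signal (difference −1.92 points, −7.72 to 3.89). A GC box was present in 15.2% and 8.89% (difference 6.27 points, 2.40 to 10.2), the composite in 10.5% and 6.85% (difference 3.68 points, 0.314 to 7.09), and the first intron held 37.2% and 61.5% (difference −24.3 points, −30.0 to −18.4).

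The 10 members of highest signal were in Smco2, Miga1, Ttc34, Cldn34d, Ckap5, Mfsd2a, Mrps27, Def6, Vegfd and Hagh, with signals of 29.3 to 23.0. All 10 were called in both replicates, and 1 of them, in Hagh, held a GATA pattern. The region of Smco2, in intron 2 of 9, had signals of 24.96 in replicate 1 and 25.3 in replicate 2 and lay on chromosome 6 at 146855201 to 146855561. That of Miga1, which encodes a protein of mitochondrial fusion, had 25.1 and 22.4 and lay in intron 7 of 15, at 1894 bp from the start of another transcript. Mfsd2a, a lipid transporter, had 20.3 and 21.9 in intron 3 of 13. Hagh, the enzyme glyoxalase II, had 18.8 and 20.6 in intron 5 of 8 and held the composite. In each of these the replicates differed by less than their distance from the members' medians of 7.34 in replicate 1 and 7.66 in replicate 2.

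The strongest members with the composite, after Hagh, were in 4932438H23Rik, Phf21a, Chd4, BC017158, Ncoa7, Shld1, Pnpla6, Ldlrad1 and Trim55, with signals of 22.5 to 16.1, and each was called in both replicates. Chd4 encodes the helicase of the NuRD complex, which FOG1 recruits. Its region lay in intron 10 of 38, 7868 bp downstream of the start, with signals of 14.9 in replicate 1 and 18.1 in replicate 2, and the sequence with its composite is printed above. Shld1, a factor of double-strand break repair, had 16.8 and 17.1 in the last of its 2 introns.

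Genes of the red cell program held such regions in every functional group but the globins. Over all 21829 protein-coding genes, 1802 held at least 1 member (8.26%). Of 81 genes in the 4 red cell lists, which leave out the 9 globin genes (0 with a member), 35 did (43.2%). Over the replicates' own lists the share was 34.0% ± 2.62 (SD, n = 2), against 5.27% ± 0.522 of all genes. For such replicate counts of genes the rule was applied anew to each replicate's own list. Their genes and regions need not be those of the conservative list. Those lists had 46.4 members per Mb of eligible sequence, and all genes together had 9.78. Of the 81 genes, 68 had an open promoter, meaning a region summit within 1 kb of a coding start. Among all genes with an open promoter and eligible sequence, 14.7% held a member. Of their 53 members, 33 held a GATA pattern (62.3%) and 9 the composite (17.0%), against 40.7% and 9.06% of all members. The lists were chosen with earlier results of these data known, so the counts describe the genes and were not tested.

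In heme synthesis and transport, 8 of 15 genes held 10 members, 9 of them in first introns, and 8 genes did so in each replicate. Alas2, the first enzyme of the pathway in red cells, had a region 2365 bp downstream of its start with signals of 8.43 in replicate 1 and 11.96 in replicate 2. Slc25a37, the mitochondrial iron importer mitoferrin 1, had one at 8505 bp with 9.26 and 10.4. Abcg2, an exporter of porphyrins, had one at 1810 bp with 7.99 and 9.95, and its composite lay outside the 50 bp on either side of the summit. Alad, which makes porphobilinogen, had one at 3094 bp with 7.39 and 7.42, and a second member without GATA and with no value in either ranked list. Uros, the uroporphyrinogen synthase, had one in intron 5 of 9 with 8.06 and 7.87 and 2 GATA matches. Its summit lay 35 bp from the start of an annotated transcript not counted as protein-coding. The members of Slc25a38, a mitochondrial glycine carrier (7.33 and 8.05), and the nearer one of Abcb10, a mitochondrial transporter (8.50 and 6.81), had no GATA pattern. Fech, which inserts iron into heme, had one at 3203 bp with 5.05 and 5.28 and a GATA pattern. Each gene named here had at least 1 member called in both replicates.

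In the membrane and skeleton group, 12 of 24 genes held 22 members, 16 with a GATA pattern. The replicate lists counted 9 genes in replicate 1 and 8 in replicate 2. Tmod1, which caps the actin filaments of the skeleton, had signals of 10.99 in replicate 1 and 13.1 in replicate 2, at 1677 bp. Epb41, the protein 4.1 that ties the skeleton to the membrane, had 11.2 and 9.61 at 8610 bp. Rhd, a Rh blood group protein, had 9.96 and 10.7 at 5030 bp. Slc4a1, the band 3 anion exchanger, had 9.76 and 9.10 at 1525 bp, with its summit 51 bp from the start of an annotated transcript not counted as protein-coding. Dmtn, dematin, had 7.38 and 7.33 at 2097 bp. The members of Epb41, Slc4a1 and Dmtn held the composite, and the 5 named here were called in both replicates.

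Ank1, which encodes the ankyrin that links spectrin to band 3, held 5 members spread along its body. The strongest, on chromosome 8 at 23053993 to 23054704, lay 4065 bp upstream of the nearest start, within the span of a longer transcript, with signals of 12.7 in replicate 1 and 12.1 in replicate 2 and the composite across its summit. The weakest of the 5 had 6.79 and 5.69 and was in neither replicate's list. Gypc, glycophorin C, held 5 members in its first intron, of which 4 were called in both replicates and 4 held a GATA pattern, with signals in the conservative list of 5.11 to 9.86. Add1, an adducin that joins spectrin to actin, had a member with a GATA pattern and signals of 10.2 in replicate 1 and 7.64 in replicate 2, called in replicate 1 alone. Its partner Add2 had one with a GATA pattern and signals of 5.63 and 5.54, in neither list. Kel and Cd47 had 1 member each, below 5 in signal, without GATA and in neither list.

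**Figure D5:**
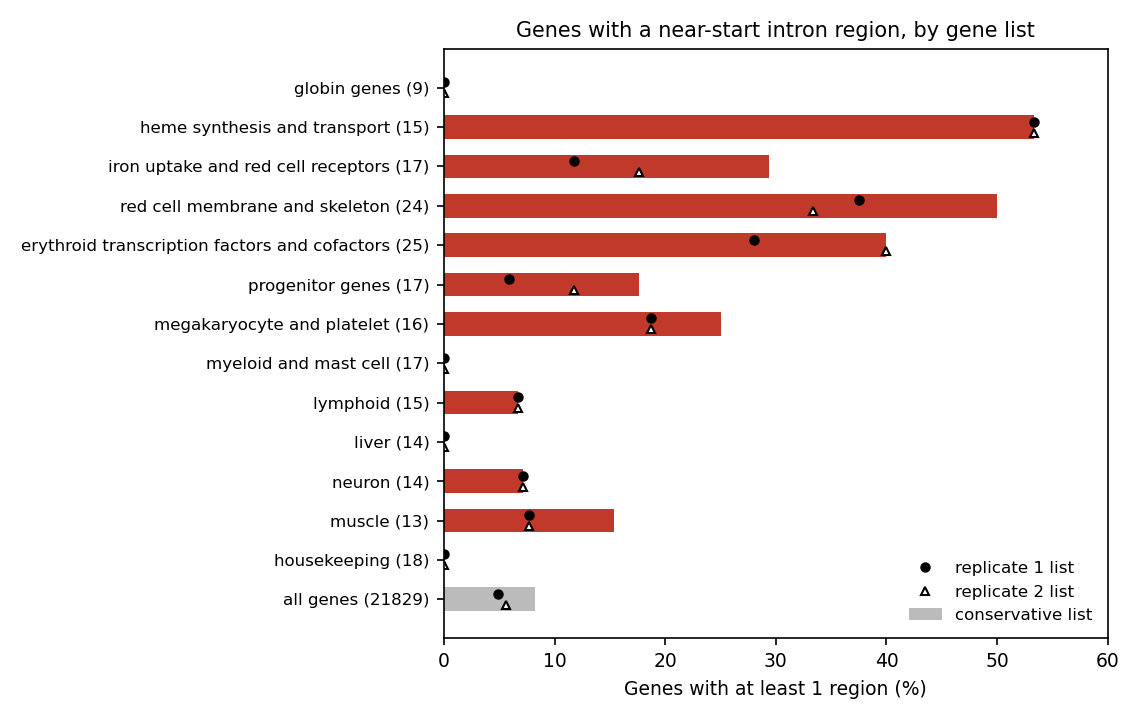
Share of the genes of each list (number of genes in parentheses) with at least 1 near-start intron region (horizontal axis, percent), as bars for the conservative list and symbols for each replicate's own list. Heme synthesis (53.3%) and the membrane list (50%) are highest, and globin, myeloid, liver and housekeeping genes stand at 0, against 8.26% of all genes.

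Among erythroid transcription factors and cofactors, 10 of 25 genes held 16 members. By the rule applied to each replicate's own list there were 7 genes in replicate 1 and 10 in replicate 2. The latter are not the same genes through the same regions, as the members of Tcf3 and Mafk below were not called in replicate 2. Gata1 had the strongest, 3545 bp upstream of its nearest coding start and in the span of a longer transcript, with signals of 10.3 in replicate 1 and 9.96 in replicate 2. E2f2, which controls the last divisions of erythroblasts, had one at 5751 bp with 8.48 and 8.57 and a GATA pattern 8.5 bp from the summit, and a weaker one at 2585 bp (6.59 and 6.92) without. Cbfa2t3, the ETO2 corepressor of the TAL1 complex, had 7.04 and 8.12 with the composite. Bach1, a repressor released by heme, had 8.63 and 8.92 at 1263 bp without GATA and 7.10 and 5.13 at 7072 bp with it. Klf13 had 3 members, and the one with GATA had 6.03 and 5.28. Foxo3, a factor of late erythroid maturation, had the composite at one member (7.90 and 6.04, called in replicate 1 alone) and no GATA at the other (4.24 and 4.798). Zfpm1, which encodes FOG1, had 4.83 and 3.70. Sox6 had the composite at one member (7.35 and 7.94) and no GATA at a second (4.34 and 4.48). Mafk (5.92 and 6.11) and Tcf3, the E-protein partner of TAL1 (5.21 and 6.95), had 1 member each without GATA. Of the 16 members, 7 were called in both replicates, 3 in neither, 4 only in replicate 2 and 2 only in replicate 1.

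Iron uptake and receptor genes held fewer, with 5 of 17 genes in the conservative list, 2 in replicate 1 and 3 in replicate 2. Trim58, an E3 ligase of maturing erythroblasts, had 12.1 and 10.5 at 1322 bp, and Steap3, the ferrireductase of the transferrin cycle, had 8.55 and 8.74 at 6304 bp, both called in both replicates and without GATA. Jak2, the kinase of the erythropoietin receptor, had 5.69 and 6.15. Tfrc, the transferrin receptor, and Slc11a2, an iron transporter, had GATA patterns and signals of at most 4.89 in either replicate, and were in neither list.

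Genes of other lineages varied. Of 16 megakaryocyte and platelet genes 4 held a member: Itgb3 (8.63 and 8.25) and Tubb1 (8.13 and 7.67) with the composite, Treml1 (5.11 and 5.54) with a GATA pattern and Itga2b (9.46 and 7.51) without. Of 17 progenitor genes, Runx1, Spi1 and Lmo4 held 6 members, and 1 of these 6, in Lmo4, had a GATA pattern. Lymphoid genes had 1 member, in Gata3 (18.6 and 17.97), at 1085 bp from the start and with a CpG ratio of 0.706, and neuron genes had 1, in Tubb3 (8 and 9.83), with the composite. Of 13 muscle genes, Tnni1 and Tnnt2 held 1 member each. That share of 15.4% lay above the 8.26% of all genes, with a Wilson interval that includes it (4.33 to 42.2). In each replicate's own list the muscle share was 7.69%, against 4.90% of all genes in replicate 1 and 5.64% in replicate 2. The share was 6.67% of 15 lymphoid genes, 7.14% of 14 neuron genes and 17.6% of the progenitor genes. None of 9 globin, 17 myeloid and mast cell, 14 liver and 18 housekeeping genes held a member, with upper Wilson limits of 29.9%, 18.4%, 21.5% and 17.6%. Eligible sequence in the globin genes came to 0.00084 Mb in all, so the rule could hardly find one there.

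Members were more frequent in genes whose promoter was open. Of 8697 genes with eligible sequence and a region summit within 1 kb of a coding start, 14.7% held a member, against 4.88% of the 10755 genes without one (difference 9.80 points, 8.96 to 10.7). Per Mb of eligible sequence the numbers were 15.9 (15.1 to 16.7) and 5.63 (5.22 to 6.08). Seen from the members, 73.2% had a host gene with an open promoter, against 44.7% of the genes with eligible sequence. The 18 housekeeping genes, with members in none, all had an open promoter. Among the 35 red cell genes with a member, 8 had no open promoter, and Alas2, Trim58, E2f2 and Sox6 were among them. As a check of the labelled cell type, 21 of 24 membrane genes and 12 of 15 heme genes had an open promoter. So did 15 of 17 iron and receptor genes, 20 of 25 erythroid factor genes and 5 of 9 globin genes. In the other lineages it was 10 of 17 progenitor, 5 of 16 megakaryocyte and platelet, and 3 of 15 lymphoid genes. The neuron list had 2 of 14, muscle 1 of 13, myeloid and mast cell 1 of 17, and liver 0 of 14. Of all 21829 genes, 9153 had an open promoter.

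Most host genes held 1 member: 1466 held 1, 256 held 2 and 80 held 3 or more. The genes with most members were Gm20388 with 39, Trak1 with 9, Fgfr2 with 8, Mical3, Ank1, Atf7ip, Gypc, Taok3 and Nt5c3 with 5 each and Nfic with 4. Gm20388 and the annotated body of Fgfr2 span 4.43 and 2.96 Mb and run across other genes, so their counts describe the gene models. Of the 39 members in Gm20388, 13 had no other host, while the 8 in Fgfr2 all lay in another gene as well, such as Ctbp2, Fam53b or Oat. Trak1, an adaptor that carries mitochondria along microtubules, held members with signals in the conservative list of up to 14.7. Nfic, a transcription factor of the NFI family, had the strongest of this set, with a signal of 17.6 in intron 9 of 9.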

How the data were processed

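Per the labels, both libraries are ATAC-seq of estradiol-treated G1E-ER4 cells and the lists are on mm10. The aligner, the peak caller, the filters and any shift for the transposase are not stated in any source used here. The authors deposited peak lists with a signal (an enrichment value) per peak, and the −log10 of the p-value of each peak in the deposited ranked lists. Read depth is unknown, so intervals cover counting error only. Nothing beyond the words biological replicate is given of the cultures, so the spread between them may be technical.

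Overlapping rows of the authors' conservative list, made from both replicates, were merged, and 29337 peaks gave 20080 regions. Regions were annotated with GENCODE M21 (54329 starts of protein-coding transcripts, 21829 genes), and patterns were scanned in summits with 100 bp on either side with Python 3.11.15, numpy 2.4.6, pandas 2.3.3 and pysam 0.24.0. A region was called in a replicate where it overlapped a region of that replicate's own thresholded list by at least 50% of the shorter. Replicate values come from the strongest overlapping peak of that replicate's ranked list. In all 7 lists were used. Shares have 95% Wilson intervals, differences Newcombe intervals and densities exact Poisson intervals, all across regions, which are not replicates. The GATA scan, the assignment to classes, the merging of rows and the Newcombe interval were tested on simulated or constructed data. The overlap with the replicate lists, the host genes, the densities and the other patterns were not part of these tests. Alternatives are given at the end.

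The members and the 13 gene lists were chosen with earlier results of these data known. Named were the 10 members of highest signal, the 10 genes with most members, up to 5 members of each gene list (every member for erythroid factors), the 10 strongest composite members, and the 3 nearest each side of each distance limit. Members of lists beyond 5 and co-hosts of the long gene models were named after their values were seen. The values of 1 list gene are not reported here.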

Additional observations from a re-analysis of the deposited data

How the results depend on the processing

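Over 17 alternative settings and 15 results, 145 of 188 values held: shares kept their direction and side of the interval, medians moved by less than the replicate spread, and counts stayed within 1.5 times. The composite difference from introns beyond 10 kb turned from −1.40 to 0.324 points with 50 bp on either side of the summit, both with intervals that include 0. Starts of all transcripts gave 2950 regions. Starting from one replicate's own list gave 1190 to 1387 regions and 1070 to 1231 genes. Differences from introns beyond 10 kb were then 1.01 to 4.65 points in calling by both replicates, the upper of which excludes 0, and −0.841 to −0.765 in median signal. In a single list, calling by both replicates counts regions also found in the other list, which is another measure than in the main setting. Differences from promoters were −148 to −140 bp in median width and −10.9 to −10.4 points in median GC. Only regions above the median signal left 566 regions and 578 genes, with differences of −0.157 in signal, −168 bp in width, −9.95 points in GC and −3.18 points in GATA against introns beyond 10 kb. At 1 to 5 kb there were 1217 regions and 1116 genes. The differences were −1.78 in signal and −2.58 points for the composite against introns beyond 10 kb, and −206 bp and −10.9 points in GC against promoters. Against near intergenic regions within the same limits the composite differed by 1.43 points, with an interval that includes 0. Introns at 5 to 10 kb were in no group there. With 1 start per gene the differences were 5.18 points in calling by both replicates, which excludes 0, −1.07 in signal, −198 bp, −9.95 points in GC and −2.53 points for the composite against introns beyond 10 kb, and 2.58 points for GATA and 0.9502 points for the composite against near intergenic regions, both with intervals that include 0. With starts of all transcripts they were −1.23 points for GATA, 0.713 points for the GC box, −0.632 in signal and −170 bp. Beyond 2 kb, GATA differed by −1.28 points and signal by −0.700. GATA differed by −1.35 points with 50 bp on either side of the summit and by −1.89 points as AGATAA alone, signal by −0.821 in the pooled pseudoreplicate list, width by −250 bp and GC by −10.9 points without merging, and GC by −11.97 points with 200 bp on either side. Leaving out the gene models Gm20388 and Fgfr2, a setting chosen after seeing the data, moved no call. The cause of these shifts was not tested, beyond the fewer regions that each restriction leaves. No paired analysis was possible because both libraries belong to a single group.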
